A study of Pinus pinaster with 6 samples.

Results

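The 162 probes described here had a ratio of 0.4 or higher in each of 3 maritime pine trees, on a cDNA microarray that set developing xylem of the crown against developing xylem of the trunk base. They were chosen by these ratios, with their signs as deposited, from 3432 probes, which is 4.72% of them. The array table holds 3448 probes, of which 16 adjoining positions of suspected control spots (plate 1, rows A to D, columns 1 to 4) were left out. A ratio of 0.4 is 1.32-fold if the values are log2, as they were taken here. When the condition was set on only 2 of the trees, 229 probes met it without tree 1, 260 without tree 2 and 179 without tree 3. On the deposited scale, where the ratios of tree 2 had the smallest spread, tree 2 thus limited the number most.

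The samples came from straight, field-grown adult trees of Pinus pinaster from the Sierra Bermeja in southern Spain. Crown xylem was taken from the last 5 internodes, and base xylem from the trunk up to 1 m above the ground. Crown and base RNA of each tree were amplified, labelled with opposite dyes and hybridised together, so each value compares the tissues within 1 tree. Tree 1 was 29 years old and was harvested in 2005, with Cy5 on the crown RNA and Cy3 on the base RNA. Tree 2 (31 years old, 2005) and tree 3 (28 years old, 2007) had Cy3 on the crown RNA and Cy5 on the base RNA. Each tree is 1 biological replicate (n = 3), and its 2 technical repeats, which share an array, were averaged.

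Developing xylem is the soft layer just inside the cambium in which tracheids, the water-conducting cells of conifer wood, enlarge, thicken their walls and lignify. Near the crown the cambium is young and lays down juvenile wood, with short tracheids whose cellulose microfibrils lie at a wide angle to the cell axis. At the base of an old trunk the same cambium, now old, lays down mature wood, with longer tracheids and a steeper winding of the microfibrils. A comparison of the tissues within a tree therefore sets young cambium against old cambium of the same genotype.

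The probes carry position codes, which the sources used here do not pair with genes. The genes behind the 162 probes were not analysed here, nor could the tissues be checked against marker genes. The sources used here also leave the numerator of the ratio unstated. The sample titles name crown before base, but no label says which tissue a positive value favours, and a ratio that follows the dye could not be told apart from one that follows the tissue if the columns had not been turned to a common tissue order. "Positive" therefore means the deposited sign and not a tissue. With the sign of tree 1 turned, 0 probes met the condition in the positive direction and 2 met the mirrored condition in the negative direction. The 162 probes then had mean ratios between -0.02 and 0.59, with a median of 0.25. Because the condition made every tree mean of these probes positive, turning tree 1 had to lower their means. The true orientation of tree 1 therefore cannot be read from these values.

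In the 162 probes the ratios were mostly moderate. Their mean over the 3 trees ran from 0.45 to 1.59, with a median of 0.77, or 1.71-fold, and the quartiles were 0.64 and 0.96. A mean below 0.6 was found for 27 probes, a mean between 0.6 and 1 for 101, and a mean of 1 or higher, a 2-fold ratio, for 34. Only 9 probes reached 2-fold in each of the 3 trees. Since these ratios chose the probes, they are a description and carry no test. All 162 also passed limma's test of the ratio against 0 (adjusted p under 0.05 over 3448 probes), as did 15.4% of all probes in either direction and 10.6% in the positive direction, and nothing is read from that count.

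**Figure D1:**
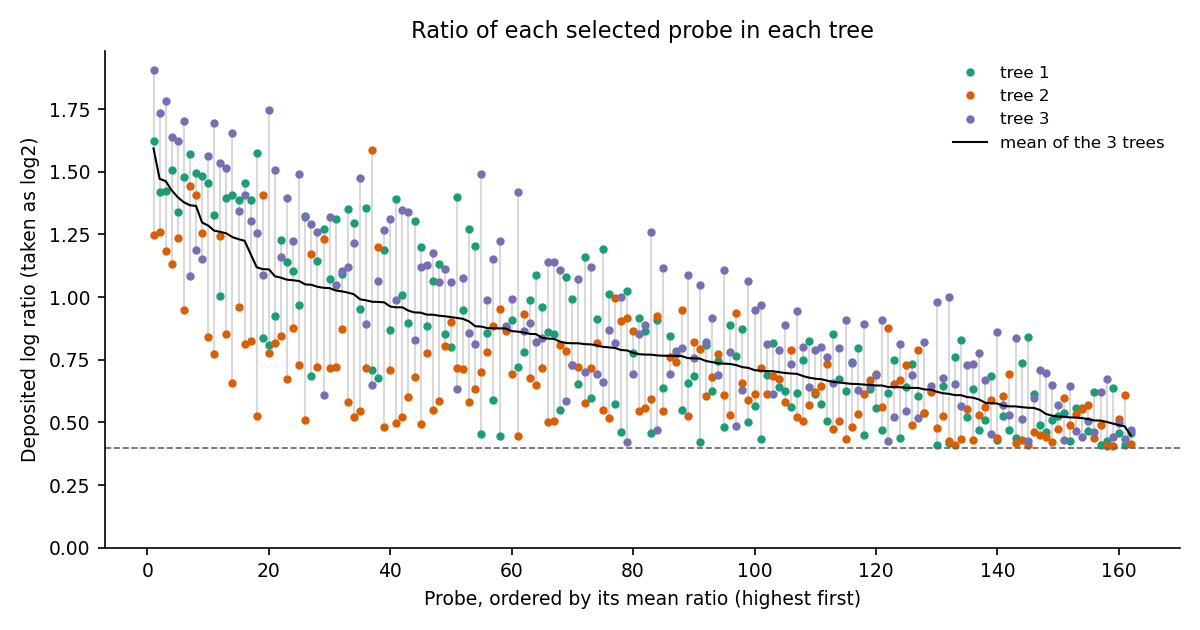
Deposited ratio (taken as log2) of each of the 162 probes in tree 1, tree 2 and tree 3 (points), joined by a grey line, with the probes in order of their mean over the trees (black line). The dashed line marks the condition of 0.4. On this scale the orange points of tree 2 lie lowest for 90 of the probes, and the violet points of tree 3 highest for 87.

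The highest mean belonged to probe Q8G19 (plate 8, row G, column 19). Its ratios were 1.61 and 1.63 in the repeats of tree 1, 1.24 and 1.26 in those of tree 2, and 2.10 and 1.71 in those of tree 3. The mean was 1.59 ± 0.33 (SD, n = 3 trees), or 3.02-fold, with tree 3 highest and tree 2 lowest. Probe Q6K3 (plate 6, row K, column 3) came next. Its repeats gave 1.41 and 1.43 in tree 1, 1.26 and 1.26 in tree 2, and 1.78 and 1.69 in tree 3. The mean was 1.47 ± 0.24 (SD, n = 3 trees), or 2.77-fold, and the order of the trees was that of Q8G19.

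At the edge of the condition the probes inside and outside differed little. The lowest tree mean was between 0.4 and 0.5 for 51 of the 162 probes, and 73 other probes had their lowest tree mean between 0.3 and 0.4. Just inside, Q5C10 had tree means of 0.426, 0.407 and 0.674 in trees 1, 2 and 3, and Q7D4 had 0.637, 0.407 and 0.444. Just outside, Q1D20 had 0.512, 0.398 and 0.670, and Q2B19 had 0.397, 0.516 and 0.440. For comparison, the size of the difference between the repeats of a tree, without its sign, had a median over the 162 probes of 0.054, 0.059 and 0.070 in trees 1, 2 and 3. That is larger than the gap between the lowest tree means of these 4 probes.

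A high mean was rare among probes that missed the condition. Of the other 3270 probes, 6 had a mean of at least 0.77, the median of the 162, and tree 2 was the lowest tree in 4 of the 6. Q5M2, singled out after its values were seen, was the only one of them with a mean of 1 or higher. Its tree means were 0.06, 2.30 and 0.99 in trees 1, 2 and 3, with a mean of 1.12 ± 1.13 (SD, n = 3). In each tree its repeats lay close together, at 0.04 and 0.08, at 2.24 and 2.37, and at 1.00 and 0.98. The ratio of tree 2 was thus the highest and that of tree 1 near 0, unlike the order in the probes with the highest means.

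On the deposited scale the ratios were lowest in tree 2. Over the 162 probes the tree means had a median of 0.78 in tree 1 (range 0.41 to 1.62), 0.66 in tree 2 (0.41 to 1.59) and 0.86 in tree 3 (0.42 to 1.91). A ratio of 1 or higher was found for 46 probes in tree 1, 14 in tree 2 and 63 in tree 3. Within a probe, tree 2 was the lowest for 90 of 162 (55.6%), tree 1 for 47 (29.0%) and tree 3 for 25 (15.4%). Tree 3 was the highest for 87 (53.7%), tree 1 for 52 (32.1%) and tree 2 for 23 (14.2%).

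The place of tree 2 depended on the scale of the columns. Over all probes the SD of the ratios was 0.353 and 0.362 in the repeats of tree 2, against 0.408 to 0.415 in the other 4 columns. With each column brought to a common SD, an alternative chosen after seeing the data, tree 2 was the lowest for 68 of the 162 probes (42.0%), tree 1 for 65 (40.1%) and tree 3 for 29 (17.9%), and tree 3 was still the highest for 80 (49.4%). The median ratios on that scale were 0.74 in tree 1, 0.72 in tree 2 and 0.82 in tree 3. Bringing the columns to a common median absolute deviation, which already differed little between them, left tree 2 the lowest for 88 probes (54.3%). As deposited, in the mirror set of 77 probes at -0.4 or lower in all trees, tree 2 had the smallest ratio for 27 (35.1%), tree 3 for 28 (36.4%) and tree 1 for 22 (28.6%). The median size of the ratio in trees 1, 2 and 3 was 0.79, 0.72 and 0.78 in that set. With columns of equal SD, tree 2 had the smallest ratio in that set for only 9 probes (11.7%). Tree 1 had it for 35 (45.5%) and tree 3 for 33 (42.9%), and the median sizes were 0.76, 0.79 and 0.74. Whether the sets differ in the order of the trees was not tested.

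**Figure D2:**
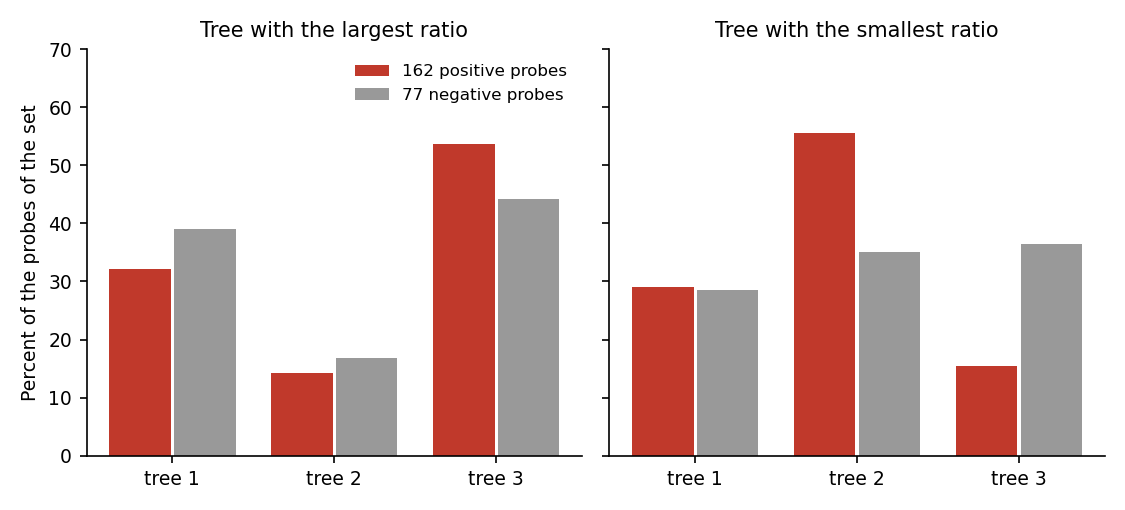
Share of probes (percent of the set) whose ratio was largest (left panel) or smallest (right panel) in tree 1, tree 2 or tree 3, for the 162 positive probes (red) and, by size of the ratio, the 77 negative probes (grey). On the deposited scale shown, tree 3 was largest for 53.7% of the positive probes and tree 2 smallest for 55.6%. With columns of equal SD these shares were 49.4% and 42.0%. Of the negative probes, tree 2 was smallest for 35.1% as deposited and for 11.7% with columns of equal SD.

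The difference between 1 tree and the other 2 is described here without a test, since the tree means that chose the probes also make up these differences and the condition bounds them from below. Tree 1 minus the mean of trees 2 and 3 had a median of 0.01 over the 162 probes and was positive in 86 (53.1%), against a median of 0.00 and 50.5% positive over all probes. Tree 2 minus the mean of trees 1 and 3 had a median of -0.18 and was positive in 40 (24.7%), against -0.01 and 47.0% over all probes. Tree 3 minus the mean of trees 1 and 2 had a median of 0.17 and was positive in 117 (72.2%), against 0.01 and 52.2% over all probes. Tree 1 cannot be told apart from its dye orientation, nor tree 3 from its harvest year. A limma fit of these differences over all 3448 probes, with 1 residual degree of freedom, passed an adjusted p under 0.05 for 0% of them for tree 1, 0.319% for tree 2 and 0.348% for tree 3. None of the 162 was among them. The unadjusted p was under 0.05 for 15, 19 and 13 of the 162 in trees 1, 2 and 3, and for 19.4%, 3.51% and 3.13% of all probes, and nothing is read from these counts.

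The range over the trees within a probe had a median of 0.40. The widest ranges were those of Q5H4 and Q8L7, and they came from different trees. Q5H4 had 1.62 and 1.53 in the repeats of tree 1, 0.63 and 0.42 in tree 2, and 1.28 and 1.24 in tree 3, so tree 2 alone was low. Q8L7 had 0.40 and 0.51 in tree 1, 0.70 and 0.70 in tree 2, and 1.52 and 1.47 in tree 3, so tree 3 alone was high. The narrowest range, 0.02, was that of Q1O16, singled out after its values were seen. Its tree means were 0.88, 0.86 and 0.88, with a mean of 0.87 ± 0.01 (SD, n = 3). Its repeats differed by more than its trees, with 0.91 and 0.84 in tree 1, 0.92 and 0.81 in tree 2, and 0.94 and 0.83 in tree 3.

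The SD between trees had a median of 0.206 in the 162 probes, 0.155 in the other 3270 and 0.167 in the 77 negative probes. Relative to the size of the mean, the SD between trees had a median of 0.260 in the 162 probes and 0.210 in the negative ones. Pearson's r across the 162 probes was highest between tree 1 and tree 3 (0.53), followed by tree 1 with tree 2 (0.40) and tree 2 with tree 3 (0.37). Spearman's rho was 0.45, 0.36 and 0.33 for the same pairs. Across the other 3270 probes r was highest between tree 2 and tree 3 (0.71), followed by tree 1 with tree 3 (0.52) and tree 1 with tree 2 (0.40). In ranks the pairs with tree 1 were lower there, at a rho of 0.70, 0.32 and 0.16 in that order. Trees 2 and 3 share the dye orientation and tree 1 has the other, so dye and tree cannot be told apart here. These correlations run over probes of the same 3 arrays, and the condition of 0.4 narrows the range of values in the 162.

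The difference between the technical repeats was not used by the condition. The SD between repeats had a median of 0.0563 in the 162 probes and 0.0555 in the other probes. The SD between trees was larger than the SD between repeats for 147 of the 162 probes (90.7%) and for 2805 of the other 3270 (85.8%). Repeat 1 minus repeat 2, tested over the 3 trees with limma, passed for 0 of the 162 probes and for 0% of all 3448, with unadjusted p under 0.05 for 4 of the 162 (2.47%) and for 130 of all probes (3.77%). Its median over the 162 was -0.002. The test looks for a difference of the same sign across the trees. Differences of opposite sign cancel in it, so it does not measure how closely the repeats of a tree agree.

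**Figure D3:**
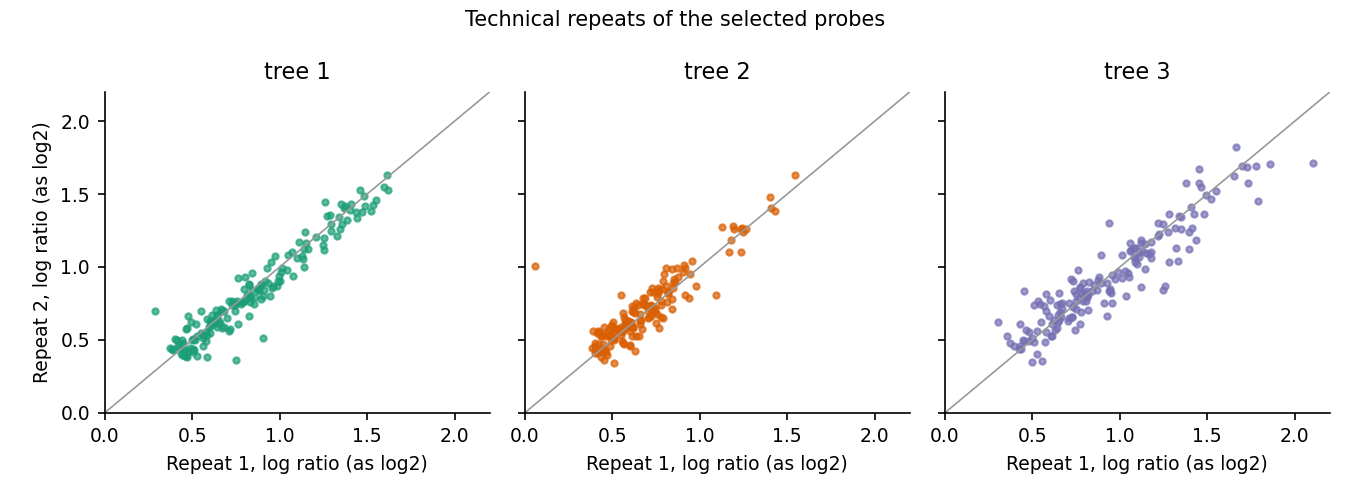
Ratio (taken as log2) of each of the 162 probes in technical repeat 1 (horizontal) and repeat 2 (vertical) of tree 1, tree 2 and tree 3, with the line of equal values. The points follow the line in each tree, at a Pearson correlation over probes of 0.96, 0.89 and 0.93, and the point at the far left of tree 2 is Q9M23.

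In 140 of the 162 probes (86.4%) all 6 columns were at 0.4 or higher, and in all 162 the 6 columns were above 0. The widest gap between repeats was that of Q9M23, singled out after its values were seen. It had 0.06 and 1.01 in the repeats of tree 2, 0.75 and 0.36 in tree 1, and 0.53 and 0.40 in tree 3. Its tree means of 0.56, 0.53 and 0.47 in trees 1, 2 and 3 met the condition only because the repeats were averaged. With repeat 1 or repeat 2 of each tree alone, 160 and 156 probes met the condition, and 150 of the 162 were among them in each case.

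To see the ratios in a tree that had no part in the choice, probes were chosen in 2 trees and looked at in the remaining tree. Of the 179 probes at 0.4 or higher in trees 1 and 2, 162 reached 0.4 in tree 3, or 90.5% (exact 95% interval 85.2% to 94.4%), against 13.1% of all probes. Of the 229 chosen in trees 2 and 3, 162 reached it in tree 1, or 70.7% (64.4% to 76.5%), against 11.3% of all probes. For tree 2 the share was 162 of the 260 chosen in trees 1 and 3, or 62.3% (56.1% to 68.2%), against 8.97% of all probes. The 162 are the same probes in each case, so these shares restate the counts of 179, 229 and 260. They are a description and carry no test of the 162. The intervals treat probes as independent and cover counting error only, although probes share the arrays.

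The shares above 0, which include every probe at 0.4 or higher, were as follows. The ratio in the remaining tree was above 0 for 179 of 179 probes in tree 3, for 215 of 229 (93.9%) in tree 1 and for 255 of 260 (98.1%) in tree 2. Over all probes these shares were 48.1% in tree 3, 50% in tree 1 and 48.5% in tree 2. None of the chosen probes was at -0.4 or lower in the remaining tree, where the lowest ratio was 0.04 for tree 3, -0.38 for tree 1 and -0.29 for tree 2. The chosen probes had a median ratio of 0.82 when looked at in tree 3, while in tree 1 it was 0.61 and in tree 2 it was 0.51. The probes that fell short of 0.4 were still mostly positive, with a median of 0.22 for 17 probes in tree 3, 0.20 for 67 in tree 1 and 0.26 for 98 in tree 2.

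**Figure D4:**
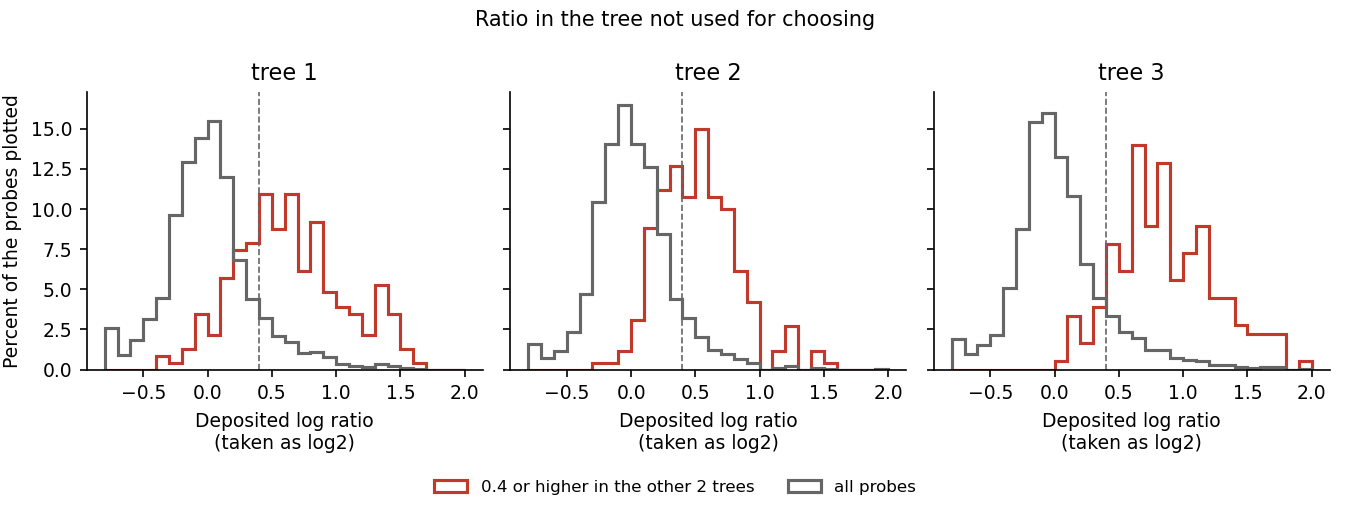
Ratio (taken as log2, in bins of 0.1) in tree 1, tree 2 and tree 3 of the probes at 0.4 or higher in the other 2 trees (red) and of all 3432 probes (grey), as a percent of the probes plotted. Ratios beyond the axis are counted in the outermost bins, and the dashed line marks 0.4. The red curve lies to the right of the grey one in each tree, farthest in tree 3, where 90.5% reached 0.4.

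Read by its form, a position code names 1 of 9 plates, 1 of 16 rows and 1 of 24 columns, and apart from the 16 positions left out the codes had no part in the choice. Plate 7 held 38 of the 162 probes, which is 9.90% of its 384 probes, against 4.72% of all probes. Most of them lay in its columns 1 to 12, with 29 of 192 (15.1%), against 9 of 192 (4.69%) in its columns 13 to 24. Over all plates these shares were 5.46% and 3.99%. Parts of other plates also differed, as with 2.84% in rows A to H and 8.85% in rows I to P of plate 1. Plate 9 held 1 of its 376 (0.266%), the probe Q9M23 with the discordant repeats. The other plates held 14 to 22 each, or 3.65% to 5.98% of their probes. The mirror set of negative probes made up 2.24% of all probes, with 9 (2.34%) on plate 7, a lowest share of 1.33% (5 probes) on plate 9 and a highest of 3.65% on plate 3. Whether the sets differ in their spread over the plates was not tested.

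Under stricter conditions the share on plate 7 lay nearer to those of the other plates but remained the highest. The mean ratio of its 38 probes had a median of 0.74, and medians on plates 1 to 6 and 8 lay between 0.67 and 0.86. With the condition raised to 0.5, plate 7 kept 20 probes (5.21%), against 3.23% of all probes and 2.08% to 4.89% of plates 1 to 6 and 8. At 0.6 it held 12 (3.12%), against 1.92% of all probes and 1.30% to 2.72% of those plates. When each plate of each column was centred on its median, 155 probes met the condition, 147 of them among the 162. The share on plate 7 was not counted after this centring.

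Rows and columns of the codes also differed. Row L held 20 of the 162 probes (9.26% of its 216 probes), and row P held 3 (1.39% of 216). Without plate 7, an alternative chosen after seeing the data, row L held 15 of 192 (7.81%) and row P 2 of 192 (1.04%), against 4.07% of all probes outside plate 7. Columns 9 and 4 had the highest shares, 14 of 144 (9.72%) and 13 of 136 (9.56%), and columns 11, 15 and 22 the lowest, with 3 of 144 each (2.08%). The column shares were not repeated without plate 7, which held 29 of the 162 probes in its columns 1 to 12, some of them in columns 9 and 4. The clones behind the codes were not analysed here, and no test was run over positions.

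**Figure D5:**
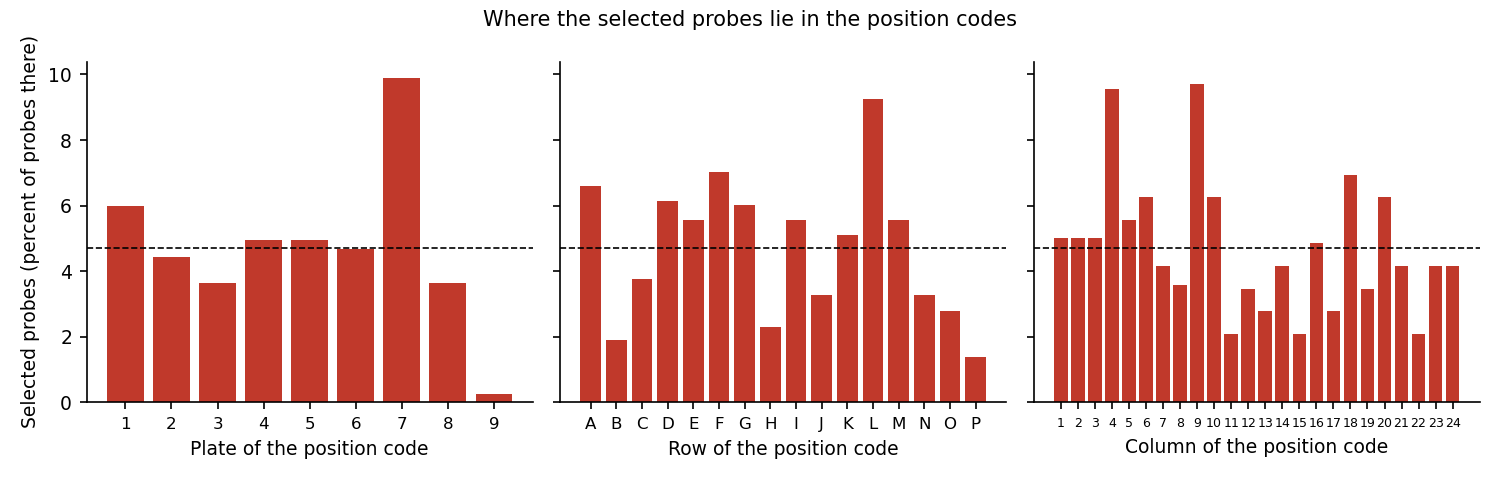
Share of the probes of each plate, row and column of the position code (percent) that belong to the 162, without the 16 positions left out. The dashed line is the share over all probes, 4.72%, and plate 7 (9.90%), row L (9.26%) and columns 9 and 4 stand highest.

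Neighbouring wells were compared with the plates they lie on, since plate 7 holds many of the 162 probes. A directly adjoining well on the same plate was counted once for each of the 162 probes beside it, which gave 618 counts. In 28 of them (4.53%) the well was itself among the 162, which made 14 adjoining pairs. The share over the plates of these wells, weighted by the same counts, was 5.91%. At a distance of 2 wells the share was 7.39%, against 5.91%, and at 4 wells 6.08%, against 5.86%. The adjoining probes that were not among the 162 had a median mean ratio of -0.02, against -0.03 for all probes outside the 162. Cut into groups of 4 by 4 positions, the probes touched 106 of 215 groups, and no group held more than 4.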

How the data were processed

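The table deposited by the authors gives 1 normalised log ratio per probe and column, in 6 columns, taken here as log2. The submitters' processing notes list R 2.7.1 and limma 2.14.5, with no statement of what each did. How the background was corrected, how the ratios were normalised, and their log base and numerator are not stated in the labels. Column medians lay between -0.0142 and 0.00318, and a change in all probes together would not show in such values. No value was missing. Intensities were not analysed here, so precision rests on the number of trees (3).

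Repeats of a tree were averaged. The members, the lists and the tests were chosen with earlier results of these data known. Differences between repeats, between 1 tree and the other 2, and from 0 were fitted in R 4.3.3 with limma 3.58.1 (lmFit, eBayes), adjusted by Benjamini and Hochberg over all 3448 probes (threshold 0.05), and the scripts were tested on simulated data. Figures used Python 3.11.15 and matplotlib 3.10.9. The named probes are the 2 of highest mean, the 2 on either side of the condition and the 2 of widest range, and others are marked as singled out later. The codes were read as plates and wells from their form. Gene lists and marker lists were not tested, because the codes are not paired with genes. Alternatives were other thresholds, single repeats, centring, a common scale, each tree left out and the opposite sign of tree 1.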

Additional observations from a re-analysis of the deposited data

How the results depend on the processing

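The number of 162 probes depended on the threshold and on the sign of tree 1. It was 66 at a threshold of 0.6, 23 at 0.8 and 0 with tree 1 turned, and leaving out each tree gave 179 to 260, where dropping a condition can only add probes. Under the other alternatives it stayed within 1.5 times, from 111 at a threshold of 0.5 to 235 at 0.3, with 165 after median centring, 166 on a common scale and 177 with the 16 positions kept. The shares reaching the threshold in the remaining tree were run at thresholds of 0.3 and 0.5, with median centring and with each repeat alone. There they stayed within their intervals, from 64.5% to 73.5% in tree 1, 58.1% to 66.6% in tree 2 and 89.9% to 91.7% in tree 3. These alternatives reuse the same columns, and the intervals do not measure the change between them. The shares were not run with tree 1 turned, on a common scale or with plates centred. The count of all probes passing against 0 (532) was 348 to 584 with each tree left out, lowest without tree 3, and that of the repeat difference 0 to 1. Calls from the fits of 1 tree against the other 2 are not given for the alternatives, since 1 tree stands alone in each. Their number changed with single repeats for tree 2 and for tree 3, and nothing is read from it. With columns of equal SD, chosen after seeing the data, tree 2 was the lowest for 68 of the 162 probes, against 90 as deposited. In the 77 negative probes tree 2 had the smallest ratio for 9, against 27 as deposited. The causes were not tested. The lists of genes could not be run, and with 1 group of samples no pairing between groups arises.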
